A study of Homo sapiens with 6 samples.

Results

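S100 genes encode small calcium-binding proteins, and transcripts of 10 of them were followed here in HCT116, an established epithelial line from a human colorectal carcinoma. The members were S100A2, S100A3, S100A4, S100A6, S100A10, S100A11, S100A13, S100A14, S100A16 and S100P, taken by symbol from the deposited table of 36651 genes, in which all 10 were found. PolyA RNA was sequenced from 3 libraries labelled siMTA1 and from 3 control libraries of the same line. MTA1 is a subunit of the chromatin complex NuRD. The labels name the first group siMTA in their descriptions and CrMTA1 in their titles, so that knockdown and a change in the genome cannot be told apart, and they name the second group both control and wild type. The sources used here give neither the agent, the duration nor the kind of control RNA. Whether the libraries of a group came from separate cultures is not stated. The p-values set the difference between the groups against the variation among these libraries. That variation may be technical, so the p-values do not extend to new cultures.

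S100 proteins have a pair of EF-hands, helix-loop-helix motifs that hold calcium, and most work as dimers. Calcium binding opens a surface by which a dimer grips its target protein, often an annexin, a cytoskeletal protein or a co-chaperone. Some S100 proteins also leave the cell and bind surface receptors such as RAGE. In intestinal and other epithelia they are known from membrane repair, cell movement and, in tumours, invasion. S100A10 is the member that has lost its response to calcium and stays in the active shape.

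MTA1 (ENSG00000182979.17, chromosome 14 from 105419820 to 105470729 on the plus strand) was at 44.55, 43.98 and 47.97 FPKM in siMTA1 libraries 1, 2 and 3, against 65.90, 67.61 and 66.74 FPKM in control libraries 1, 2 and 3. FPKM counts fragments per kilobase of transcript, scaled to the number of fragments mapped in the library. The mean was 68.2% of control (limma adjusted p = 0.000376, and exact two-sided permutation p = 0.1, the smallest possible with 3 against 3 libraries). Of 12141 genes averaging 1 FPKM or more, 18.2% passed the threshold of an adjusted p under 0.05 in the test with limma, 6.13% higher and 12.1% lower with siMTA1. These are 744 and 1463 genes. The split moved with the scaling, to 1011 and 895 genes with quantile normalization, 1000 and 939 with upper-quartile scaling and 1128 and 802 with median centring. Without control library 2 the counts were 391 and 655, and without siMTA1 library 2 they were 424 and 642. Low values of short genes imply 57200000 to 66700000 fragments in the siMTA1 libraries and 42900000 to 65400000 fragments in the control libraries. The cells matched their epithelial label in part: 7 of 10 colon epithelium markers reached the filter, led by KRT19, with a summed level of 5661 to 6306 FPKM in siMTA1 and 6559 to 6874 FPKM in control libraries, whereas CDX1, VIL1 and LGALS4 were at or near 0. The summed leukocyte markers were at 0.10 to 0.25 FPKM with siMTA1 and 0.15 to 0.19 FPKM in control, and endothelial markers at 0.14 to 0.28 FPKM with siMTA1 and 0.12 to 0.24 FPKM in control. Fibroblast markers summed to 2.17 to 2.76 FPKM with siMTA1 and 1.94 to 2.01 FPKM in control, nearly all of it COL1A1 and with PDGFRA listed at 0. Squamous keratinocyte markers summed to 13.81 to 16.04 FPKM with siMTA1 and 12.47 to 14.07 FPKM in control, nearly all of it KRT10 and with KRT1 listed at 0. The part of these markers in the S100 values was not tested.

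Of the 9 members that passed the filter, S100A10 rose with siMTA1 and none fell, so that 1 of 9 (11.1%) was called where 18.2% of all tested genes were. The median log2 fold change of the 9 members was 0.02, against −0.05 for all tested genes. At an unadjusted limma p under 0.05 there were 2 members higher and 1 lower, where 11.5% of all tested genes were higher and 23.5% lower. The groups did not overlap in 2 of the 9 members, S100A10 and S100A3, where 39.1% of all tested genes showed no overlap, 13.2% with siMTA1 higher and 25.9% with siMTA1 lower. S100P was the member below the filter. In bulk RNA a change in the share of cells that make a transcript and a change in transcript per cell cannot be told apart.

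S100A10, also called p11, binds annexin A2 in a complex of paired chains at the plasma membrane, where it gathers plasminogen and its activators. The gene lies on chromosome 1 from 151982915 to 151994390 on the minus strand (ENSG00000197747.8, GRCh38 with GENCODE 29). Its level was 86.53, 83.96 and 90.04 FPKM in siMTA1 libraries 1, 2 and 3, against 61.92, 55.19 and 56.95 FPKM in control libraries 1, 2 and 3. Every siMTA1 library was thus higher than any control library, and the gap between the groups was wider than the range within either. Mean levels were 86.8 ± 3.05 FPKM with siMTA1 and 58.0 ± 3.49 FPKM in control (SD, n = 3 each), a ratio of 1.50. On the log2(FPKM + 1) scale the difference was 0.57 (SE 0.06, 95% interval 0.44 to 0.71, limma adjusted p = 0.000462). Over all 18 alternatives the difference lay between 0.54 and 0.63 and the adjusted p between 2.21e-05 and 0.0123.

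**Figure D1:**
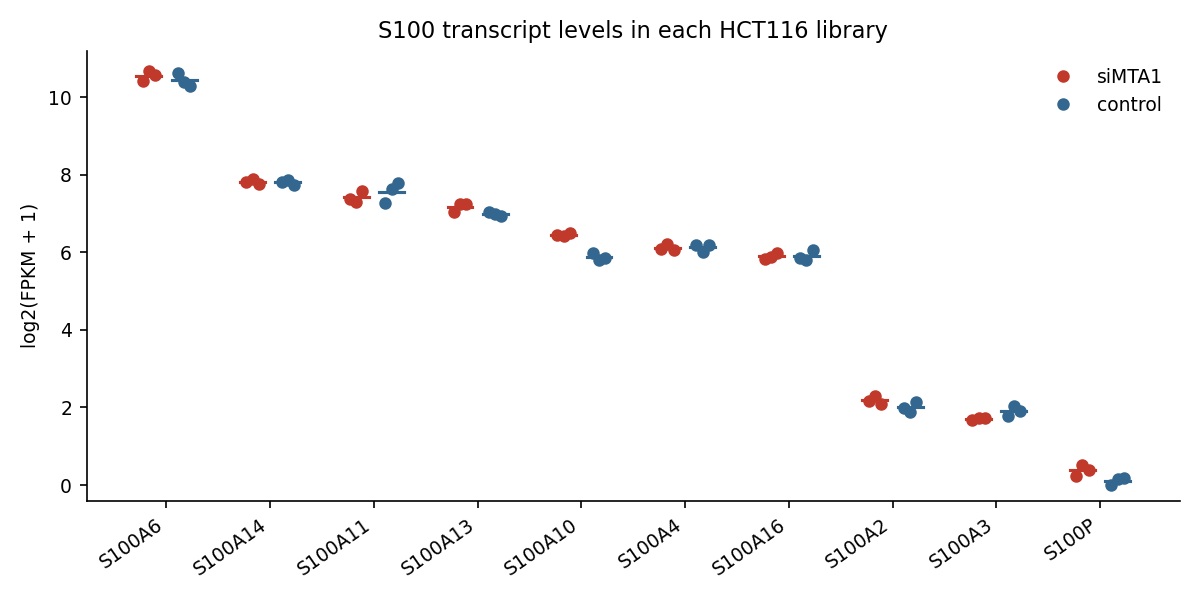
Level of each S100 member as log2(FPKM + 1) in every library, siMTA1 (red) left of control (blue), with a line at the mean of the log values and genes ordered by mean FPKM over all libraries. The points of S100A10 separate, with 83.96 to 90.04 FPKM in siMTA1 libraries and 55.19 to 61.92 FPKM in control libraries, while S100A6 stands above all other members in both groups.

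The coding sequences of the 9 tested members, S100P and S100A5 run from 270 to 315 bases, and pairs of them were identical at 41.3% to 69.0% of positions in global alignments. The closest pair was S100A2 and S100A4. To set the member that rose beside its neighbour S100A11 and the most abundant member, S100A6, 30 bases around each GCGTG in the 250 bases before the RefSeq start (GRCh38.p14) are given, 5′ to 3′ on the gene's strand, with the match in capitals. GCGTG is one form of the core to which hypoxia-inducible factors can bind.
S100A10 (chr1:151993964-151993993, minus strand): agcgagggcaggGCGTGggccgcgcgcccg
S100A11 (chr1:152037005-152037034, minus strand): ggcaaggctgggccgggaaggGCGTGggtt
S100A6 (chr1:153536194-153536223, minus strand): actcgtcaccagGCGTGcagtgggcactgc
S100A6 (chr1:153536130-153536159, minus strand): cccgggcaggagGCGTGgaaagtcgagggg

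The S100A10 match lies 122 bases before its RefSeq start and that of S100A11 9 bases before its own. GCGTG was thus in the window of the member that rose and in windows of 5 members that did not pass, S100A11, S100A6, S100A2, S100A16 and S100A13. It was in 7 of the 14 windows listed for the 10 members, all of which matched by symbol, and in 32.2% of 35116 windows of the same length. The related ACGTG was in 1 member window, against 18.5% of all windows.

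Other motifs were also searched as letters on both strands. S100A13 and S100A2, which have GCGTG, are among the genes that hold them, though not always in the same window. The TATA box TATAAA is shown for the 3 genes that have it, and TGANTCA, a form of the AP-1 site, for the 2 genes that have it, in each case with the match in capitals.
S100A4 (chr1:153545820-153545849, minus strand): gcctggctggggTATAAAtaggtcagacct
S100A13 (chr1:153627517-153627546, minus strand): ttccccgctgctTATAAAcctcagccctga
S100P (chr4:6693838-6693867, plus strand): atgaggctgcctTATAAAgcaccaagaggc
S100A3 (chr1:153549465-153549494, minus strand): ggaatcaggagTGAGTCActgggctagcat
S100A2 (chr1:153565878-153565907, minus strand): ggagtgggctgTGACTCAcaggcatgtcat

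TATAAA lay 31, 29 and 28 bases before the start in S100A4, S100A13 and S100P and was in 3 of the 14 windows, against 10.7% of all windows. TGANTCA was in 2 windows, against 6.57%. GGGCGG, the GC box, was in 6, against 42.6%, CCAAT in 3, against 32.0%, and CANNTG, the E-box, in 10, against 61.8%. CANNTG can overlap ACGTG, and the other motifs were counted independently. A match describes letters only.

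The level of annexin A2 did not pass the test. ANXA2 was at 867.24, 850.35 and 893.20 FPKM in siMTA1 libraries 1, 2 and 3, against 901.22, 901.10 and 930.37 FPKM in control libraries 1, 2 and 3. These groups did not overlap either, but the difference was small (log2 fold change −0.07, 95% interval −0.18 to 0.05, limma adjusted p = 0.408). S100A10 made up 9.98%, 9.87% and 10.1% of the ANXA2 level in siMTA1 libraries, against 6.87%, 6.13% and 6.12% in control libraries. The ratio between the transcripts was 1.57 times as high with siMTA1, and 1.54 to 1.63 times with any 1 library left out. It was not tested and describes transcripts, not the protein complex. Processed copies of ANXA2 were listed at no more than a mean of 0.51 FPKM, but the sources used here do not say how reads shared with them were counted.

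**Figure D2:**
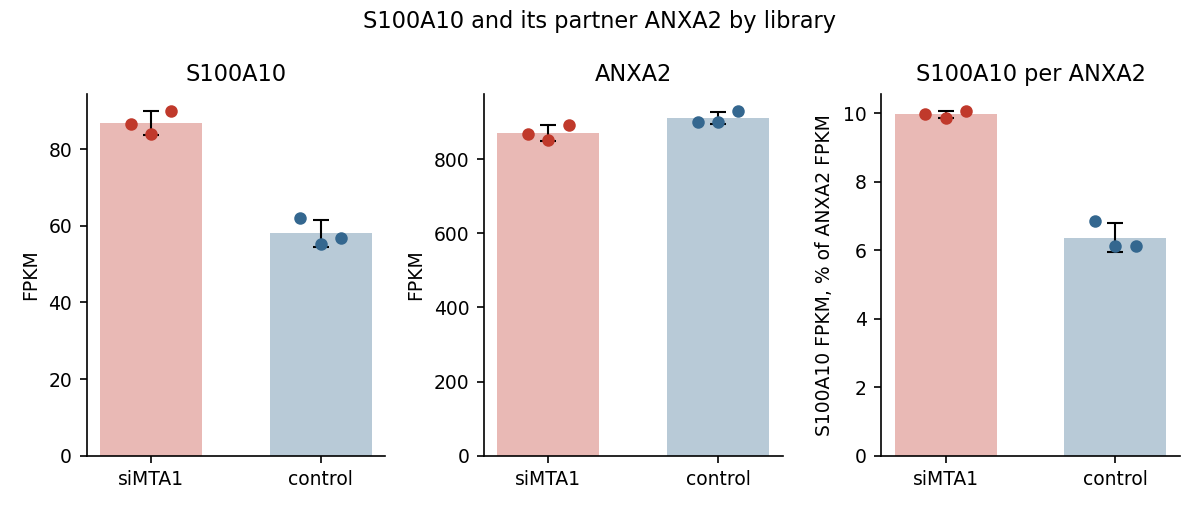
FPKM of S100A10 and ANXA2 and the S100A10 level as a percentage of the ANXA2 level, with siMTA1 left of control. Bars are means, points are libraries and error bars are SD (n = 3). The percentage was 9.98 ± 0.10 with siMTA1 and 6.37 ± 0.43 in control, while ANXA2 averaged 870.3 FPKM with siMTA1 and 910.9 FPKM in control.

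S100A6 was the most abundant member in both groups. Calcyclin, its product, binds annexin A11 and the ubiquitin-pathway adaptor CACYBP. It was at 1362.66, 1620.51 and 1523.28 FPKM in siMTA1 libraries 1, 2 and 3, against 1570.44, 1338.17 and 1257.40 FPKM in control libraries 1, 2 and 3. The groups overlapped, with control library 1 higher than siMTA1 libraries 1 and 3. The log2 fold change was 0.12 (95% interval −0.09 to 0.32, limma adjusted p = 0.403). S100A6 held 66.3% ± 1.44 of the summed FPKM of the 10 members with siMTA1 and 65.4% ± 3.30 in control (SD, n = 3 each).

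The summed level of the 10 members followed S100A6. It was 2096, 2388 and 2308 FPKM in siMTA1 libraries 1, 2 and 3, against 2276, 2074 and 2009 FPKM in control libraries 1, 2 and 3, a ratio of means of 1.07 with overlapping groups. Without S100A6 the sums were 733.1, 767.5 and 784.4 FPKM with siMTA1, against 705.4, 736.3 and 751.9 FPKM in control. The share held by S100A10 was 3.85% ± 0.31 with siMTA1 and 2.74% ± 0.09 in control.

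S100A13, S100A11 and S100A4 are members with known target proteins, and none of them passed. S100A13, which takes part in the release of FGF1 and interleukin 1α by a route outside the secretory pathway, was at 130.09, 151.45 and 150.86 FPKM in siMTA1 libraries 1, 2 and 3, against 131.70, 124.86 and 120.39 FPKM in control libraries 1, 2 and 3. The groups overlapped because siMTA1 library 1 lay just below control library 1. The log2 fold change was 0.19 (95% interval 0.04 to 0.35, limma adjusted p = 0.0845). S100A13 passed with array weights (0.0292), without siMTA1 library 1 (adjusted p = 0.0336) and after median centring (0.0459), and its adjusted p over all alternatives ran from 0.0292 to 0.259. A stretch of its exons, 10.6% of their length, lies opposite exons of S100A1 on the other strand. Although the libraries were directional, the sources used here do not say whether counting used strand. On the same strand, 24.2% of the S100A13 exon bases are shared with AL162258.1, listed at a mean of 0.05 FPKM. How fragments in these shared bases were counted is not stated either.

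S100A11, the partner of annexin A1, was at 165.26, 156.41 and 192.04 FPKM in siMTA1 libraries 1, 2 and 3, against 153.74, 197.69 and 218.26 FPKM in control libraries 1, 2 and 3. Control library 1 held the lowest value and control library 3 the highest, so the siMTA1 values lay inside the control range. The log2 fold change was −0.14 (95% interval −0.41 to 0.13, limma adjusted p = 0.448). S100A4, which binds non-muscle myosin IIA and is known from motile and metastatic cells, was at 66.94, 73.56 and 65.86 FPKM with siMTA1, against 72.38, 63.78 and 72.55 FPKM in control. Its groups overlapped almost fully. The log2 fold change of −0.02 (95% interval −0.17 to 0.14, limma adjusted p = 0.896) changed sign with the scaling.

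S100A14 and S100A16, both known from epithelia, had nearly equal levels in both groups. S100A14 was at 222.81, 237.12 and 217.44 FPKM in siMTA1 libraries 1, 2 and 3, against 223.34, 233.68 and 212.04 FPKM in control libraries 1, 2 and 3 (log2 fold change 0.02, 95% interval −0.12 to 0.15, limma adjusted p = 0.856). S100A16 was at 55.59, 58.35 and 62.31 FPKM with siMTA1, against 56.93, 55.19 and 65.31 FPKM in control (log2 fold change −0.01, 95% interval −0.17 to 0.16, limma adjusted p = 0.955). Both groups overlapped for both genes. The upper bounds of 0.15 and 0.16 lie below the lower bound of 0.44 for S100A10, and smaller differences remain possible at this spread. The sign of S100A16 depended on the scaling, that of S100A14 on array weights, and both on which library was left out.

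The remaining members were scarce. S100A2, a gene that p63 can induce in epithelial cells, was at 3.51, 3.95 and 3.25 FPKM in siMTA1 libraries 1, 2 and 3, against 2.93, 2.70 and 3.44 FPKM in control libraries 1, 2 and 3. Control library 3 lay above siMTA1 library 3, and the difference did not pass (log2 fold change 0.19, 95% interval −0.01 to 0.38, limma adjusted p = 0.155), although it did with array weights (adjusted p = 0.0147, and 0.0147 to 0.410 over all alternatives). S100A3, known from the cuticle of hair, was at 2.19, 2.31 and 2.31 FPKM with siMTA1, against 2.44, 3.11 and 2.79 FPKM in control. The groups of S100A3 did not overlap. Its log2 fold change of −0.21 (95% interval −0.38 to −0.03) missed the threshold (limma adjusted p = 0.0881). S100A3 passed without control library 1 (adjusted p = 0.0403) and with array weights (adjusted p = 0.00596), against up to 0.282 in the other alternatives. The S100A3 gene lies within the span of the more abundant S100A4 on the same strand, without shared exon bases. Whether S100A4 RNA adds to the S100A3 values was not tested.

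S100P, known from placenta and from several carcinomas, where its product binds ezrin and RAGE, was near the limit of detection. It was at 0.18, 0.44 and 0.31 FPKM in siMTA1 libraries 1, 2 and 3, against 0, 0.11 and 0.14 FPKM in control libraries 1, 2 and 3. All siMTA1 values lay above the control values, with control library 1 listed at 0. At the implied depth and with exon lengths of GENCODE 29 these levels correspond to about 13, 38 and 24 fragments with siMTA1 and 0, 8 and 12 fragments in control. Where the filter was lowered to a mean of 0.1 FPKM the log2(FPKM + 1) fold change was 0.27 (SE 0.09, limma adjusted p = 0.0966), and without a filter the adjusted p was 0.185.

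**Figure D3:**
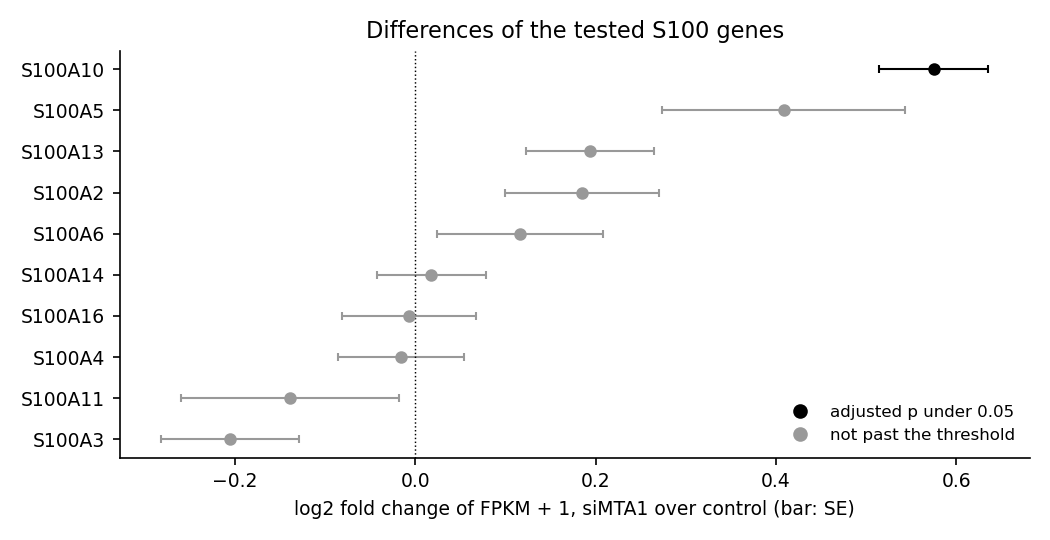
Log2 fold change of FPKM + 1, siMTA1 over control, for the 9 tested members and S100A5, with SE. S100A10 (0.57) is the gene past an adjusted p of 0.05 (black). The other 9 genes (grey) lie between −0.21 for S100A3 and 0.41 for S100A5.

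In the siMTA1 libraries the members ranked S100A6, S100A14, S100A11, S100A13, S100A10, S100A4, S100A16, S100A2, S100A3 and S100P by mean FPKM, and the ranges of no neighbouring pair overlapped. In control S100A10 stood seventh, below S100A4 and S100A16. Within control the ranges of S100A14 and S100A11, S100A4 and S100A16, S100A16 and S100A10, and S100A2 and S100A3 overlapped, so those neighbours could not be ordered. S100A10 averaged 86.8 FPKM with siMTA1, above S100A4 (68.8 FPKM) and S100A16 (58.8 FPKM). In control it averaged 58.0 FPKM, against 69.6 FPKM for S100A4 and 59.1 FPKM for S100A16.

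Besides the members, 8 further S100 genes were in the table and only S100A5 reached the filter. S100A5, known from olfactory neurons, was at 2.87, 4.38 and 2.71 FPKM in siMTA1 libraries 1, 2 and 3, against 2.50, 2.30 and 1.86 FPKM in control libraries 1, 2 and 3. The siMTA1 values all lay higher, with library 2 well above the others. The log2 fold change of 0.41 (95% interval 0.11 to 0.71) did not pass (limma adjusted p = 0.0622, and 0.0188 to 0.284 over the alternatives). The settings under which it passed included array weights (0.0188), leaving out siMTA1 library 3 (adjusted p = 0.0444) and median centring (0.0499). S100A1 averaged 0.39 and S100A7 0.28 FPKM with siMTA1, against 0.37 and 0.08 FPKM in control. S100A8 and S100A9, the calprotectin genes of neutrophils, were listed at 0 in all libraries apart from S100A9 at 0.03 FPKM in siMTA1 library 2. S100B was listed at no more than 0.02 FPKM, S100Z at no more than 0.02 FPKM and S100A7L2 at 0. Of the S100-fused genes of the skin barrier, TCHH was at 0.41, 0.39 and 0.36 FPKM with siMTA1, against 0.25, 0.29 and 0.23 FPKM in control, and FLG, FLG2, CRNN and TCHHL1 did not exceed 0.01 FPKM.

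Apart from S100P, on chromosome 4, the members lie on chromosome 1, and S100A10 and S100A11 stand apart from the rest by about 1.5 Mb. The start of S100A11 lies 53.5 kb from that of S100A10, and the starts of the other members on this chromosome lie 1541.9 kb (S100A6) to 1637.0 kb (S100A13) away. Among 8 tested genes within 200 kb of an S100 gene of chromosome 1 that are not S100 genes, none rose and 1 fell (12.5%, against 18.2% of all tested genes), and their median log2 fold change was −0.01. That gene was THEM4, a thioesterase gene 84.6 kb from the S100A10 start, at 6.19 ± 0.21 FPKM with siMTA1 and 7.34 ± 0.48 FPKM in control (log2 fold change −0.21, limma adjusted p = 0.0434). Its call was lost without any of siMTA1 libraries 1, 2 and 3 (adjusted p = 0.0808, 0.0903 and 0.110) and without control library 2 or 3 (adjusted p = 0.110 and 0.114), as well as under the upper-quartile, quantile, TPM and median scalings (adjusted p = 0.0881, 0.111, 0.0506 and 0.108) and with no filter on low values (0.121). CHTOP (log2 fold change 0.21, adjusted p = 0.0591), GATAD2B, a NuRD subunit gene (0.15, adjusted p = 0.140), and INTS3 (−0.13, adjusted p = 0.166) came next and did not pass. The tested genes on either side of S100A10, THEM4 and S100A11, both had negative values.

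**Figure D4:**
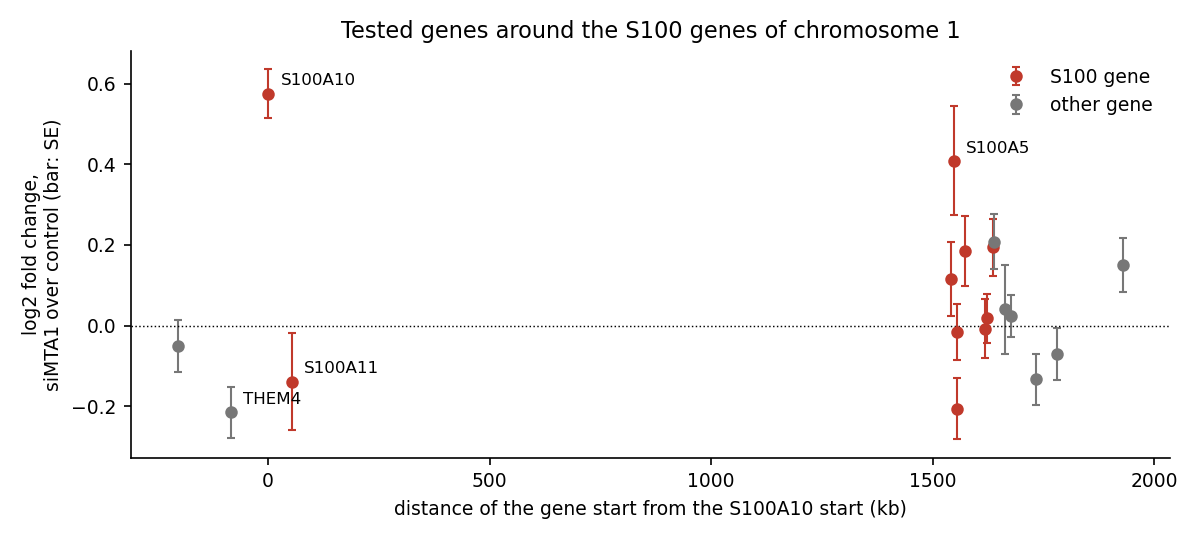
Log2 fold change of FPKM + 1, siMTA1 over control, with SE, of the tested S100 genes of chromosome 1 (red) and of other tested genes within 200 kb of an S100 gene (grey), by distance of their start from that of S100A10 in kb. S100A10 (0.57) stands above S100A11 (−0.14) at 53.5 kb and THEM4 (−0.21) at 84.6 kb on the other side.

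Of 20 tested genes for proteins that bind S100 proteins, 3 rose and 4 fell with siMTA1, which is 35% where 18.2% of all tested genes passed. The list had a median log2 fold change of −0.05, equal to that of all genes. FKBP5, a co-chaperone of steroid receptors, was at 7.38, 7.21 and 7.11 FPKM in siMTA1 libraries 1, 2 and 3, against 4.63, 4.69 and 4.64 FPKM in control libraries 1, 2 and 3 (log2 fold change 0.54, SE 0.05, limma adjusted p = 0.000364). AHNAK, a giant scaffold protein that docks on the S100A10 and annexin A2 complex, was at 33.30, 34.56 and 37.38 FPKM with siMTA1, against 26.39, 27.37 and 28.35 FPKM in control (log2 fold change 0.35, adjusted p = 0.00638). MYH9, the non-muscle myosin heavy chain that S100A4 binds, was at 165.66, 192.83 and 183.10 FPKM with siMTA1, against 124.05, 144.06 and 144.49 FPKM in control (log2 fold change 0.39, adjusted p = 0.0103). In these 3 genes every siMTA1 library was above every control library, as in 13.2% of all tested genes.

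The partners that fell included SYT1, CACYBP and FKBP4. SYT1, a calcium sensor of vesicle release that forms a complex with S100A13, averaged 3.56 ± 0.34 FPKM with siMTA1 and 4.66 ± 0.28 FPKM in control. CACYBP, the adaptor bound by S100A6, averaged 38.7 ± 2.28 FPKM with siMTA1 and 47.5 ± 4.23 FPKM in control. FKBP4, another co-chaperone, averaged 53.5 ± 1.58 FPKM with siMTA1 and 63.9 ± 3.12 FPKM in control (SD, n = 3 each throughout). All 3 had every siMTA1 library below every control library, as did 25.9% of all tested genes. The limma adjusted p was 0.0184 for SYT1, 0.0279 for CACYBP and 0.0176 for FKBP4. Without siMTA1 library 2, none of these 3 passed (adjusted p = 0.0657 for SYT1, 0.0715 for CACYBP and 0.0503 for FKBP4), and the same held without control library 2 (0.0649, 0.0902 and 0.0788). CACYBP also missed the threshold without siMTA1 library 3 (0.0798) or control library 1 (0.0649), and FKBP4 without siMTA1 library 1 (0.0585). The CACYBP call was also lost under upper-quartile scaling (0.0549) and median centring (0.0683). With no filter on low values, none of the 3 passed, and neither did MYH9 (0.0837).

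The annexins of the list did not pass. ANXA1 had a log2 fold change of 0.03 (limma adjusted p = 0.737), ANXA6 of −0.08 (adjusted p = 0.505) and ANXA11 of 0.06 (adjusted p = 0.541). EZR, which codes for the membrane linker ezrin bound by S100P, was among the most abundant partners, at 1655 ± 112 FPKM with siMTA1 and 1869 ± 112 FPKM in control (log2 fold change −0.18, adjusted p = 0.108). MDM2, HLTF, PPP5C, S100PBP, IQGAP1, PPFIBP1, SUGT1 and STIP1 lay between −0.19 (MDM2, adjusted p = 0.0725) and 0.18 (HLTF, adjusted p = 0.133). FGF1, IL1A and TRPV6 were below the filter. IL1A, whose product leaves the cell in a complex with S100A13, was at 0.03, 0.04 and 0.05 FPKM in siMTA1 libraries 1, 2 and 3, against 0.24, 0.21 and 0.25 FPKM in control libraries 1, 2 and 3.

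Among cell-surface receptors of secreted S100 proteins, 1 of 4 tested genes rose and 2 fell, where 18.2% of all tested genes passed (6.13% higher and 12.1% lower), and the list had a median of −0.15 (log2). AGER, which codes for RAGE, was at 3.83, 4.20 and 3.70 FPKM in siMTA1 libraries 1, 2 and 3, against 2.56, 2.87 and 2.62 FPKM in control libraries 1, 2 and 3 (log2 fold change 0.41, limma adjusted p = 0.00429). All siMTA1 values lay above the control values. The adhesion molecule genes ALCAM and MCAM averaged 18.8 ± 1.26 and 12.3 ± 1.14 FPKM with siMTA1, against 23.4 ± 1.61 and 15.7 ± 1.01 FPKM in control (adjusted p = 0.0189 for ALCAM and 0.0172 for MCAM). ALCAM missed the threshold without siMTA1 library 2 or 3 (adjusted p = 0.0684 and 0.0556) and MCAM without siMTA1 library 1 or 2 or control library 2 (adjusted p = 0.0551, 0.0592 and 0.0567). With no filter on low values neither passed (0.0916 and 0.0957). BSG was at 116.2 FPKM in both groups (log2 fold change 0.00), and TLR4 and CD36 were below the filter.

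In the plasmin system, on which the S100A10 and annexin A2 complex acts as a surface receptor, 3 of 7 tested genes rose and 1 fell, where 6.13% of all tested genes rose and 12.1% fell, and the list had a median of 0.14 (log2). The gene that fell was PLAU, which codes for the activator urokinase, at 60.20, 58.70 and 64.52 FPKM in siMTA1 libraries 1, 2 and 3, against 130.41, 142.22 and 150.70 FPKM in control libraries 1, 2 and 3 (log2 fold change −1.19, limma adjusted p = 1.01e-05). C10orf55, on the opposite strand of 31.1% of its exon bases, averaged 0.25 FPKM. PLAUR, the urokinase receptor, was at 32.76, 31.05 and 32.50 FPKM in siMTA1 libraries 1, 2 and 3, against 26.58, 25.04 and 25.07 FPKM in control libraries 1, 2 and 3 (log2 fold change 0.32, adjusted p = 0.00577). The groups did not overlap in either gene, as in 39.1% of all tested genes. SERPINE2, an inhibitor of thrombin and of plasminogen activators, had a log2 fold change of 0.24 (adjusted p = 0.0345), and its call was lost without siMTA1 library 1 or 3 (adjusted p = 0.104 and 0.0887) or control library 2 or 3 (adjusted p = 0.133 and 0.0546), and with no filter on low values (0.120). PLAT, the tissue activator, was at 4.77 ± 0.26 FPKM with siMTA1 and 4.48 ± 0.13 FPKM in control (adjusted p = 0.425). The plasminogen receptor genes PLGRKT (log2 fold change −0.19, adjusted p = 0.0577) and ENO1 (0.14, adjusted p = 0.108) did not pass, and plasminogen itself (PLG) was listed at 0 in all libraries.

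**Figure D5:**
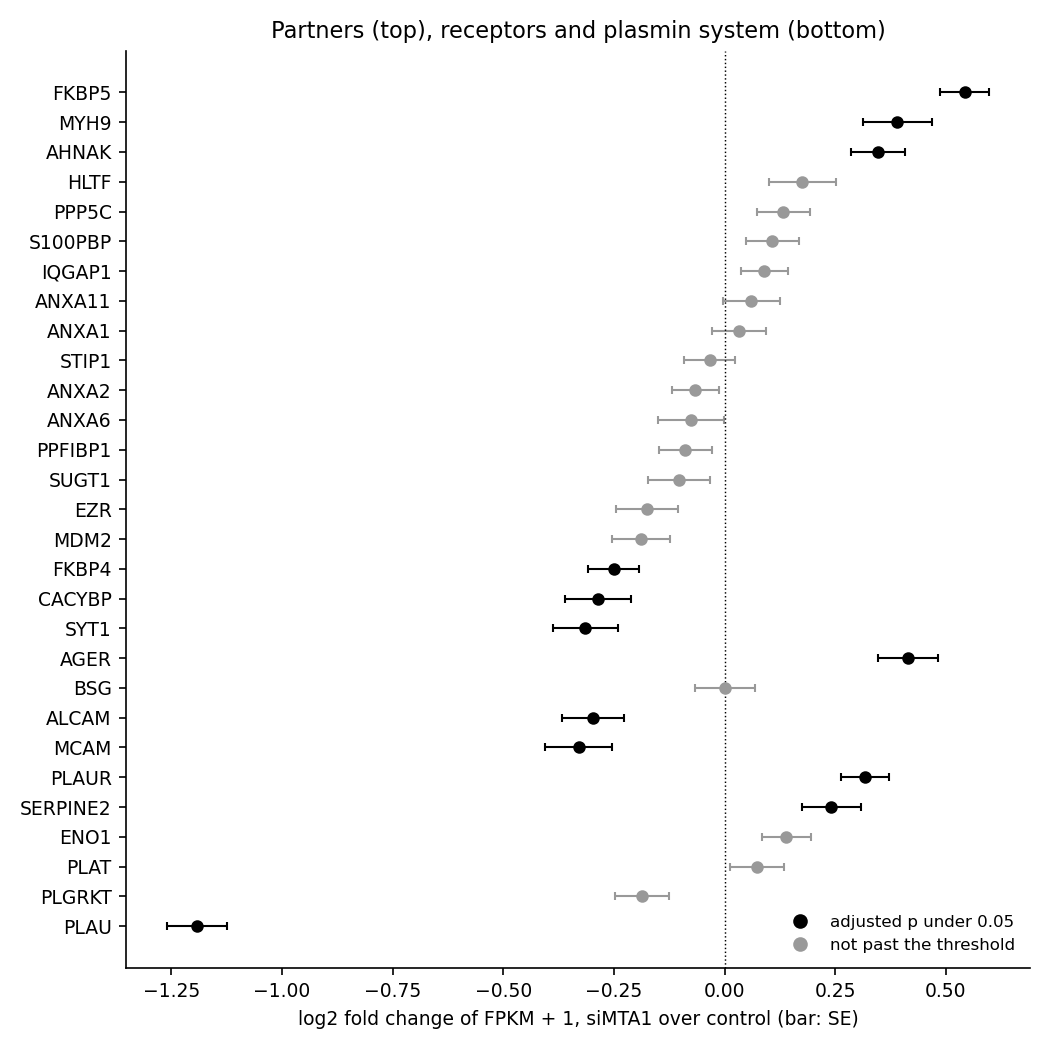
Log2 fold change of FPKM + 1, siMTA1 over control, with SE, for the tested genes reported here among partners of S100 proteins (from FKBP5 to SYT1), receptors (from AGER to MCAM) and genes of the plasmin system (from PLAUR to PLAU). Genes past an adjusted p of 0.05 are black. PLAU (−1.19) lies far below the others, and FKBP5 (0.54) is the highest.

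Of 15 tested genes for transcription factors that have been described as regulators of S100 genes, 4 rose and 1 fell, or 33.3% against 18.2% of all tested genes, and the list had a median of 0.07 (log2). The 4 that rose were the AP-1 genes FOS (log2 fold change 0.58, limma adjusted p = 0.00195), FOSL1 (0.36, adjusted p = 0.00523) and JUN (0.32, adjusted p = 0.00643) and the Wnt pathway factor TCF7L2 (0.34, adjusted p = 0.00398). FOSL1 was the most abundant of them, at 202.9 ± 8.26 FPKM with siMTA1 and 157.6 ± 9.31 FPKM in control (SD, n = 3 each). FOS averaged 1.74 ± 0.04 FPKM with siMTA1 and 0.84 ± 0.16 FPKM in control. TP63, a factor known to act on S100A2 in squamous epithelium, did not exceed 0.01 FPKM.

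Over the 6 libraries, the tested genes whose log2(FPKM + 1) followed S100A10 most closely were ANKRD37, ENO2 and MAN1A1. Their Pearson coefficients with S100A10 were 0.9996, 0.9973 and 0.9970, and 1.98% of tested genes reached 0.95. The libraries fall into 2 groups, so the coefficients mostly restate that these genes also differ between the groups. ANKRD37, a target of hypoxia-inducible factors, was at 32.67, 28.04 and 37.63 FPKM in siMTA1 libraries 1, 2 and 3, against 6.83, 4.12 and 4.46 FPKM in control libraries 1, 2 and 3. As for S100A10, library 3 was the highest of the siMTA1 libraries and library 1 the highest of the controls. ANKRD37 was picked for its correlation over these same values, so this match is no separate observation. ENO2, a glycolytic enzyme gene, was at 28.41, 27.14 and 30.08 FPKM with siMTA1, against 19.05, 17.51 and 17.31 FPKM in control. MAN1A1, a mannosidase gene of N-glycan processing, was at 11.50, 10.40 and 12.23 FPKM with siMTA1, against 6.35, 5.40 and 5.90 FPKM in control.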

How the data were processed

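The authors deposited 1 table of FPKM, printed to 2 decimals, for 36651 genes in 6 libraries. Per the submitters' processing notes, cutadapt, TopHat2 and edgeR and the build GRCh38 were used, without versions or roles. The sources used here give neither the counter, its use of strand nor the gene lengths. Columns were assigned to samples by name. No counts were used, so the test was limma 3.58.1 in R 4.3.3 on log2(FPKM + 1) with an intensity trend, two-sided and without covariates, over the 12141 genes averaging 1 FPKM or more. P-values were adjusted by Benjamini and Hochberg over these genes, and an adjusted p under 0.05 was called. Fold changes on this scale understate the change of low genes. In simulated data over 12141 genes, with 50 genes changed at each size, 44% of changes of 0.3 (log2) and 90% of changes of 0.6 were called. Far fewer genes were changed there than were called in the real data. The adjustment of p-values is stricter in that case, so these rates are not the sensitivity of the real comparison.

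Depth was estimated from genes under 150 bases, as the depth at which the most genes came to 1 fragment within 0.04, with GENCODE 29 exon lengths. Depth limits the scarce members. Coordinates are those of GENCODE 29. Promoter windows are the 250 bases before each start in RefSeq on GRCh38.p14, and protein sequences were not used here, so identities are those of coding sequences. GENCODE 29 gene starts, used for distances, can differ from these RefSeq starts. That of S100A11 is at 152047907, whereas its RefSeq window runs from 152037005 to 152037254, nearer to S100A10. The windows of S100A10, S100A11 and S100A6 lie inside the GENCODE 29 spans of these genes. Members and gene lists were chosen with earlier results of these data known. The genes named were MTA1, all members, other S100 and S100-fused genes, all tested partners, receptors and plasmin genes, the 4 genes of each other list with the smallest adjusted p, and the 3 genes most like S100A10. CALM2, IL1A, TP63 and the partners and receptors below the filter were named besides, after their values were seen. Some genes of these lists are counted but not reported here by name. Alternatives were other pseudocounts, filters, scalings and limma settings, a replicate block, and each library left out. Python 3.11.15 with pandas 2.3.3, scipy 1.17.1 and matplotlib 3.10.9 made the tables and plots.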

Additional observations from a re-analysis of the deposited data

How the results depend on the processing

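S100A10 and MTA1 kept their direction and their call in all 18 alternatives. With array weights 3 members were called higher and 1 lower, where 1434 and 2615 of all 12141 tested genes were. With median centring 2 members were higher, where 1128 of all tested genes were. With any 1 library left out, 1 to 2 members were higher and 0 to 1 lower, where 391 to 633 and 642 to 1191 of all tested genes were. The 3 members with a log2 fold change nearest to 0 changed sign. S100A4 turned positive under upper-quartile scaling (0.0292), quantile normalization (0.009), TPM (0.0007), median centring (0.0389) and array weights (0.0813) and ran from −0.0758 to 0.0158 with a library left out. S100A16 turned positive under the same settings (0.0372, 0.0379, 0.0089, 0.047 and 0.0519) and ran from −0.0544 to 0.0651. S100A14 was −0.0308 with array weights and ran from −0.0178 to 0.052. S100A5, the other S100 gene tested, was called under median centring, array weights and the replicate block (adjusted p = 0.0326 with the block, 1 gene in each), and the count ran from 0 to 1 with a library left out.

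Over all genes, 297 were higher and 379 lower with no filter on low values, 1434 and 2615 with array weights, and 939, 895 and 802 were lower under upper-quartile scaling, quantile normalization and median centring, the last with 1128 higher. Leaving out a library gave 391 to 633 higher and 642 to 1191 lower. With no filter, the calls were 3 of the partners, 1 of the receptors, 2 of the other EF-hand genes and 0 of the neighbours on chromosome 1. With a library left out they ran from 3 to 7 for partners, 1 to 3 for receptors, 3 to 4 for the plasmin system, 2 to 5 for other EF-hand genes, 4 to 5 for regulators and 0 to 1 for neighbours. Regulators had 8 calls with array weights, where 4049 of 12141 tested genes were called. Neighbours had 0 with the filter lowered to 0.1 FPKM, and 2 with the filter raised to 5 FPKM and with the replicate block. Over all tested genes these settings called 1769 of 18282, 1675 of 7087 and 3031 of 12141, in that order. The causes were not tested.

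The deviations of same-numbered libraries from their group means had correlations of 0.331, 0.022 and 0.219 over tested genes. Not every library correlated best with its own number, as control library 2 had 0.071 with siMTA1 library 3. That was the highest value among differently numbered pairs. The lowest were −0.277 (siMTA1 library 1 with control library 3) and −0.254 (siMTA1 library 3 with control library 1). The main fit did not pair libraries by number, and whether same-numbered libraries share more than a number was not tested. The replicate block gave 992 genes higher and 2039 lower, against 744 and 1463 without it. Depth limits S100P, with 0 to 38 implied fragments per library.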

Other observations

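Outside the S100 family, 9 of 29 tested EF-hand genes passed with siMTA1, 5 higher and 4 lower, or 31.0% against 18.2% of all tested genes, with a median log2 fold change of −0.06. TESC, which codes for tescalcin, a calcium-binding regulator of sodium-proton exchange, fell to 12.77, 13.76 and 13.67 FPKM in siMTA1 libraries 1, 2 and 3, against 24.24, 22.83 and 23.42 FPKM in control libraries 1, 2 and 3 (log2 fold change −0.77, limma adjusted p = 5.03e-05). The groups of TESC were far apart. HPCAL1, a neuronal calcium sensor gene that is also expressed elsewhere, averaged 56.1 ± 2.10 FPKM with siMTA1 and 43.9 ± 2.31 FPKM in control (SD, n = 3 each, log2 fold change 0.35, adjusted p = 0.00555). CALM3, a calmodulin gene, averaged 160.3 ± 7.50 FPKM with siMTA1 and 136.0 ± 5.76 FPKM in control (0.23, adjusted p = 0.0250), whereas CALM2 (0.00, adjusted p = 0.975) did not pass. CALU, which codes for calumenin of the secretory pathway, averaged 66.9 ± 3.82 FPKM with siMTA1 and 57.1 ± 0.73 FPKM in control (0.22, adjusted p = 0.0269). TESC and HPCAL1 kept their calls with any 1 library left out. The CALM3 call was lost without siMTA1 library 2 or 3 (adjusted p = 0.0821 and 0.0708) or control library 1 or 2 (0.0563 and 0.0844), and that of CALU without siMTA1 library 2 or 3 (0.0522 and 0.0759) or control library 2 or 3 (0.0875 and 0.0640). With no filter on low values neither CALM3 nor CALU passed (0.0930 and 0.0813).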
